A study of Mus musculus and Homo sapiens with 7 samples.

Results

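Slc2a1 and Slc16a1, a glucose and a lactate carrier, are described here through every guide RNA aimed at them in a pooled CRISPR/Cas9 screen. Slc2a1 (ENSMUSG00000028645) and Slc16a1 (ENSMUSG00000032902) each had 10 guides in the deposited guide table, so 20 of its 10021 guides were taken by gene name. The screen was made in B16-F10 cells, a mouse melanoma line, into which Cas9 and a fluorescent marker had been introduced by lentivirus and in which marked cells had been sorted. All groups carried Cas9 and guides, and all went through 7 days of selection in puromycin at 2 µg/mL. One group held living cells kept for 48 h in medium with glucose (2 libraries). The other held dead cells from 48 h in medium with galactose (3 libraries). Guides were amplified from 5 µg of genomic DNA. Sugar and cell state changed together, so their parts in any difference cannot be told apart. No RNA of these cells was measured, so the melanoma identity was not checked against marker genes.

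Slc2a1 encodes GLUT1, the facilitative carrier that brings glucose into most dividing cells and can also carry galactose. Slc16a1 encodes MCT1, which moves lactate, pyruvate and ketone bodies together with a proton, inward or outward depending on the gradients. Cells given galactose in place of glucose make little ATP by glycolysis and depend on respiration, and GLUT1 and MCT1 stand where sugar enters and lactate leaves the cell. A guide marks the cells whose copy of its target Cas9 may have cut. A guide more frequent among dead galactose cells than among living glucose cells thus marks cells with a larger share in the dead galactose group. Whether sugar or cell state lies behind such a difference cannot be told here.

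Depth was 6801049 and 8492138 reads in living libraries and 13275778 to 15591454 in dead libraries, recovered from the deposited normalised counts. In the deposited cells the libraries carry no replicate number, and they are called living a and b, and dead a, b and c, by their place. Between the living libraries the log2 guide counts differed with an SD of 0.389 over 5877 guides averaging 100 or more, while between pairs of dead libraries the SD was 0.872 to 1.07. Dead libraries thus spread more among themselves than living ones did. From dead library a to the living libraries the SD was 0.661 and 0.679, below its distance to either of the other dead libraries. The labels name no separate cultures. Every p-value therefore reflects library-to-library spread alone, and that spread may be technical.

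Of the 10 Slc2a1 guides, numbered here 1 to 10 in the order of their library numbers, guides 1, 5, 6 and 8 had no read in any library. Of the 10 Slc16a1 guides, numbers 1 and 9 had none. Among all 10021 guides, 22.4% were at 0 in all libraries. A count of 0 allows up to 3 reads, which is 4.71 normalised counts in living a, 3.74 in living b and 2.28 to 2.59 in the dead libraries. With no earlier time point or guide pool analysed here, it was not tested whether these guides were lost from the cells or were never taken up. Slc16a1 guide 10 had no read in the living libraries or in dead library a, 3 reads in dead b and 9 in dead c, so its mean of 1.91 normalised counts lay under the minimum of 10 set for testing. The other 6 Slc2a1 guides and 7 Slc16a1 guides were tested. All guides of a gene share that gene as their target and are not replicates of a condition.

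Slc2a1 guides did not move one way. Guide 9, the most abundant, counted 2079 in living a and 1927 in living b, after normalisation, against 2555, 6039 and 6518 in dead a, b and c. The groups did not overlap, with dead a only a little above living cells and dead b and c far above. Means and SDs were 2003 ± 107 over the 2 living and 5037 ± 2163 over the 3 dead libraries. On the scale of log2(normalised count + 1) the change was 1.22 ± 0.50 (SE), with a 95% interval from −0.10 to 2.54 that spans both directions. By limma the unadjusted p was 0.0635, and the adjusted p over 7248 guides was 0.603. The fitted fold was 2.32.

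Guides 2 and 4 also had higher means in dead cells, carried by dead libraries b and c. Normalised counts of guide 2 were 406 and 285 in living cells and 268, 593 and 771 in dead a, b and c. Guide 4 had 166 and 236 in the living libraries against 176, 366 and 325 in the dead ones. For guide 2 dead library a lay below both living libraries and for guide 4 between them, so the groups overlapped. Their log2 changes were 0.55 ± 0.54 for guide 2 and 0.47 ± 0.42 for guide 4 (SE, limma, adjusted p = 0.722 and 0.694).

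The remaining Slc2a1 guides went the other way. Guide 3 had 592 and 512 normalised counts in living libraries and 266, 326 and 492 in dead a, b and c, with every dead library below both living ones. Guide 7 was the lowest by fold, with 199 and 318 in living libraries against 174, 152 and 98.4 in dead ones, and its groups did not overlap either. Guide 10 had 1225 and 1120 in living libraries and 797, 839 and 1452 in dead ones, which overlapped because dead library c was the highest of all. The log2 changes were −0.65 ± 0.34 for guide 3, −0.87 ± 0.38 for guide 7 and −0.24 ± 0.35 for guide 10 (SE, limma, adjusted p = 0.619, 0.603 and 0.801).

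Of the 7 tested Slc16a1 guides 6 had a fitted change below 0, as did 4081 of all 7248 tested guides, 176 of 286 tested guides with gene entry none and 128 of 263 with gene entry safe. The exception, guide 4, had 238 and 312 normalised counts in living libraries and 339, 301 and 345 in dead a, b and c, a log2 change of 0.26 ± 0.23. Guide 6 had the highest mean over the 5 libraries among the guides of both genes. It counted 5584 and 5217 in living libraries and 5581, 4523 and 5583 in dead ones. That guide hardly differed between the groups, with a change of −0.05 ± 0.22 and a 95% interval of the log2 change from −0.63 to 0.52. Guide 8 was likewise close to 0, with 1236 and 1278 in living and 979, 1398 and 1182 in dead libraries (−0.10 ± 0.24).

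Guide 2 had 3510 and 3244 normalised counts in living libraries and 3106, 2234 and 2169 in dead a, b and c. Each dead library lay below both living ones, by the least in dead a, and the log2 change was −0.45 ± 0.26 (SE, limma, adjusted p = 0.624). Guide 3 had 533 and 477 in living libraries and 587, 149 and 254 in dead ones, so that dead a was the highest library and dead b and c the lowest. Its change was −0.84 ± 0.64 (adjusted p = 0.663 by limma). Guide 7 had 821 and 604 in living and 676, 396 and 618 in dead libraries (−0.36 ± 0.34).

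Guide 5 was by far the rarest tested guide, with 12 and 22 reads in living libraries and 2, 0 and 23 in dead ones. In normalised counts these were 18.8 and 27.5 against 1.52, 0 and 17.8. All dead libraries lay below both living ones, but dead c was close to them. The fitted change was the lowest of all members, −2.71 ± 1.34 (SE, limma, adjusted p = 0.612). Counting error alone gives an approximate SE of 0.651, against 0.0195 to 0.101 for the other tested guides of both genes. These SEs are for log2 reads without a pseudocount, with the 0 of dead b taken as a single read. Reads carry no molecular identifiers, so these values cover counting error only.

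By limma on single guides, 0 Slc2a1 and 0 Slc16a1 guides passed an adjusted p of 0.05, and 0 had an unadjusted p under 0.05. Over all 7248 tested guides, 0% passed as higher and 0.0276% as lower, the latter being 1 guide each against Zscan26 and Spint2, named after their values were seen. Unadjusted, limma gave 263 higher and 307 lower guides with p under 0.05, and limma voom on the recovered reads called 0 guides at an adjusted p of 0.05. Every dead library lay above both living ones for 1 member guide (Slc2a1 guide 9), where 15.0% of all tested guides did so. Every dead library lay below both for 4 member guides (Slc2a1 guides 3 and 7, Slc16a1 guides 2 and 5), where 17.7% of all tested guides did so. By the authors' deposited table, FDRs of 5 Slc2a1 guides (3 for gain) and 2 Slc16a1 guides (both for loss) were under 0.05, as were those of 43.3% of all tested guides.

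Control guides gave the background at each abundance. For each tested guide these were the guides whose gene entry reads none or safe, by these names non-targeting guides and guides to safe sites, and whose mean in the living libraries was within 2-fold of its own. The comparison is a description with no test. Slc2a1 guide 9 stood out most: of 189 such control guides 188 had a lower change and 1 a higher one, with a control median of −0.12 and a highest value of 1.23. Control guides of this abundance had an SD of 0.443 in their changes.

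The other Slc2a1 guides lay within the bulk of their controls. Guide 2 was above 111 of 130 control guides and guide 4 above 89 of 107. Guide 10 was above 67 of 164, guide 3 above 33 of 135 and guide 7 above 25 of 116. At the abundance of guide 7 the middle 90% of controls ran from −1.50 to 0.99, wider than the −0.71 to 0.80 around guide 9.

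Among Slc16a1 guides, number 2 was above 19 of 160 control guides and number 3 above 22 of 135. Guide 5 was above 4 of 48, at a living abundance where the control median itself was −0.88 and controls ran from −5.01 to 2.91. Control guides were matched on living counts, which also enter the change. How far this matching set that median was not tested. Guide 7 was above 49 of 142, guide 6 above 42 of 102, guide 8 above 85 of 166 and guide 4 above 81 of 122. No tested Slc16a1 guide lay outside the range of its control guides, and neither did any Slc2a1 guide.

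Averaged over its 6 tested guides, Slc2a1 had a mean log2 guide count of 9.03 and 9.07 in living a and b, against 8.67, 9.27 and 9.45 in dead a, b and c. Dead a was the lowest library and dead b and c the highest, so the groups overlapped. The change was 0.08 ± 0.28 (SE, limma, adjusted p = 0.936 over 915 genes), a fold of 1.06 with a 95% interval from 0.654 to 1.70. By size of change Slc2a1 ranked 223 from the top. Its sign was not stable: it turned to −0.15 without the most abundant guide of each gene, to −0.07 with the median of guides and to −0.08 without dead library c. It was 0.31 without dead library a and 0.01 without dead library b.

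Slc16a1, averaged over its 7 tested guides, stood at 9.35 and 9.37 in the living libraries and at 8.90, 8.26 and 9.10 in dead a, b and c. All dead libraries lay below both living ones, dead b by the most. The same held for 23.9% of the 915 genes, and 8.31% had all dead libraries above. The log2 change was −0.61 ± 0.29 (SE, limma, adjusted p = 0.580), a fold of 0.656 with a 95% interval from 0.399 to 1.08. In the order of changes it was number 131 from the bottom. Guide 5 carried much of it: with only guides averaging 50 or more, which leaves out that guide, the value was −0.26, and without dead library b it was −0.36. Keeping guides with any read, which brings in guide 10 with its reads in dead libraries alone, gave −0.33. At an adjusted p of 0.05 limma called 0% of genes higher and 0% lower, and unadjusted p-values under 0.05 numbered 14 for higher and 73 for lower genes. Limma voom on summed reads gave the opposite balance, 110 higher and 29 lower genes at an unadjusted p under 0.05. The median gene stood at −0.16 (−0.28 with libraries scaled to equal totals). Relative to it Slc2a1 was at 0.23 and Slc16a1 at −0.45, and scaled to equal totals they were at 0.23 and −0.45 as well.

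Summed counts, in which abundant guides weigh most, gave another picture of Slc2a1. Its tested guides together took 4.37 and 4.15 of every 10000 reads in living a and b, against 3.78, 7.26 and 8.00 in dead a, b and c. Dead b and c stood well above the living libraries and dead a below them. Guide 9 held 44.2% of the Slc2a1 sum in living cells and 68.0% in dead cells. By limma voom on summed reads the Slc2a1 change was 0.62 ± 0.36 (SE, adjusted p = 0.392). Zfp316 alone passed in that fit, higher in dead cells, and is named here for that reason.

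The Slc16a1 guides took 11.2 and 10.5 of every 10000 reads in living libraries and 10.1, 7.86 and 8.42 in dead a, b and c. By this share all dead libraries lay below both living ones. In summed normalised counts the groups overlapped, with dead a (11269) between living b (11159) and living a (11942). How many genes show either pattern on sums was not counted. Guide 6 held 46.8% of the Slc16a1 sum among living and 51.5% among dead cells. By limma, the voom change was −0.19 ± 0.13 (SE, adjusted p = 0.490). Thus for both genes the size of the value, though for neither a call, depended on whether rare or abundant guides weighed more.

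Whether the carriers differed from each other was tested over libraries. The mean log2 count of Slc16a1 guides minus that of Slc2a1 guides was 0.32 and 0.30 in living libraries and 0.24, −1.01 and −0.35 in dead a, b and c. Each dead library lay below both living ones, dead a by little. The difference of −0.69 gave p = 0.2 in an exact 2-sided permutation test over the 5 libraries, which cannot go below 0.1. With only guides averaging 50 or more the difference was −0.33, and without dead library b it was −0.37.

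Set against control guides of like abundance library by library, Slc2a1 guides stood at −0.11 and −0.10 in living libraries and at −0.34, 0.15 and 0.40 in dead a, b and c. The change of 0.18 had an exact permutation p = 0.6 (2-sided). It was 0.38 without dead library a and 0.01 without dead library c. Slc16a1 guides stood at 0.03 and 0.01 in living and at −0.18, −1.04 and −0.15 in dead libraries, a change of −0.48 (exact permutation p = 0.3, 2-sided). For Slc16a1 this was −0.24 with control guides within 1.5-fold, −0.29 with control guides chosen by the mean over all 5 libraries, and −0.19 without dead library b. Neither gene passed 0.05, which 3 against 2 libraries cannot reach.

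How far guides of a gene spread was close to that of other genes. The SD of the changes was 0.800 among the 6 Slc2a1 guides and 0.992 among the 7 Slc16a1 guides, and the median gene had 0.810. Among the 915 genes 466 had a larger SD than Slc2a1 and 321 a larger one than Slc16a1.

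Few other genes of sugar and lactate handling were in the library. Of 16 sugar carriers listed, Slc2a1, Slc2a4 and Slc5a1 were tested. Slc16a1 is the member described of the monocarboxylate carriers and their chaperones. Of 8 genes of galactose entry, 28 of glycolysis and lactate and 16 of pyruvate entry to mitochondria, 0 were in the library. Of 13 regulators only Stk11 was. Slc2a4, Slc5a1 and Stk11 did not pass the limma test (adjusted p = 0.934, 0.525 and 0.890), nor did the members.

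Slc2a4 encodes GLUT4, the insulin-responsive glucose carrier of muscle and fat. Its mean log2 guide count was 9.94 and 10.06 in living libraries and 9.81, 10.14 and 10.23 in dead a, b and c, a change of 0.06 ± 0.22 with 5 of 7 guides higher. As for Slc2a1, dead a was the lowest library and dead b and c the highest. Slc5a1 encodes SGLT1, which takes up glucose and galactose with sodium. It stood at 8.67 and 8.59 in living and 7.89, 8.23 and 8.26 in dead libraries, with all dead ones below. The Slc5a1 change was −0.50 ± 0.21 (SE, limma, adjusted p = 0.525). Of its guides 3 of 6 were higher, with a lowest guide at −2.24 and a value of 0.19 by voom.

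Stk11 encodes LKB1, the kinase that activates AMPK when energy is short. It stood at 8.56 and 9.13 in living and at 7.91, 9.78 and 9.70 in dead libraries, a change of 0.29 ± 0.61 with 4 of 5 guides higher. Here too dead a was the lowest library and dead b and c the highest. How many of all tested genes had this order was not counted, so it is not shown to be particular to these genes.

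Profiles most like each member were sought as the smallest Euclidean distance over the 5 libraries between gene values centred on their own mean. For Slc2a1 these were Tespa1 (0.139), BC021891 (0.140) and Maged2 (0.167), where the median gene lay at 0.798. All 3 were lowest in dead library a and highest in dead c, with changes of 0.09, 0.02 and 0.01. For Slc16a1 they were Snx25 (0.162), Gsdmd (0.163) and Slc38a3 (0.171), where the median gene lay at 0.961. All 3 were lowest in dead library b, with changes of −0.49, −0.65 and −0.56. For both members these likenesses follow from choosing the genes by profile.

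In the authors' deposited gene table, which lists 925 entries, Slc2a1 was entered with 6 guides and Slc16a1 with 8. Slc2a1 took place 80 for gain (p-value 0.140, FDR 1) and 372 for loss (p-value 0.317, FDR 0.794), with a log2 fold change of 0.105. The authors' deposited table put Slc16a1 at 671 for gain (p-value 0.862, FDR 1) and 355 for loss (p-value 0.320, FDR 0.794), at −0.147 on the log2 scale. For loss the 2 genes thus stood close together. The authors' deposited guide table gave Slc2a1 guide 9 a log2 fold change of 1.59 (authors' FDR 1.06e-176). Slc16a1 guide 5, the rarest tested guide, had one of −3.26 there (authors' FDR 0.0783).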

How the data were processed

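Guides of a pooled screen were compared between 2 living glucose and 3 dead galactose libraries. Per the submitters' processing notes MAGeCK 0.5.9.5 was used. How guides were counted is not given in the sources used here. The deposited guide table, per the file headers, holds normalised counts, several libraries to a cell, with the authors' log2 fold change and FDR (adjusted p-value) per guide. Low values were whole multiples of 1 step per library (100% within 0.1 read), which gave whole reads. High values are rounded, so totals are approximate.

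Testing was limited to guides averaging 10 or more normalised counts across the 5 libraries, and log2(normalised count + 1) was averaged per gene with at least 3 such guides. This minimum weighs dead cells more, so the mean of both group means was tried as an alternative. Others changed the pseudocount, minimum, scaling, guide summary and libraries. The limma package (3.58.1, R 4.3.3; lmFit and eBayes, 2-sided, Benjamini-Hochberg over the whole table, threshold 0.05) was run on genes and on guides. The gene fit was tried on simulated counts, with the same dispersion in all libraries and changes larger than that of either member. That trial does not show how well changes of the members' size are found. Exact permutation tests over libraries served for single values. Fold changes on this scale understate those of rare guides. Named genes were the members, tested genes of the sugar and lactate lists and the 3 nearest profiles of each member. A result for 1 listed gene is not reported here. The members and lists were chosen with earlier results of these data known. Guide sequences and the RNA immunoprecipitation libraries were not used here.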

Additional observations from a re-analysis of the deposited data

How the results depend on the processing

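Slc2a1 changed sign under 5 of 17 alternatives: −0.0666 with the median of guides, −0.0426 at equal totals, −0.15 without the most abundant guide of each gene, −0.000373 without the rarest tested guide, and between −0.0815 (dead library c left out) and 0.31 (dead library a left out) when libraries were left out in turn. Its other values ran up to 0.62 with limma voom on reads. The cause was not tested. For Slc16a1 all 17 alternatives gave values below 0 (−0.78 to −0.19), as did the 16 for its difference from Slc2a1 (−0.99 to −0.26). Neither gene change passed under any alternative run (lowest adjusted p 0.392 and 0.325). The exact test of the difference cannot go below 0.1 with 5 libraries, so its p-values (lowest 0.2) say nothing about stability. With a living library left out, the dead libraries alone give the spread and the lone living library is assumed to vary like them. Against control guides of like abundance the values kept their sign under 9 alternatives each, 0.01 to 0.38 for Slc2a1 and −0.64 to −0.19 for Slc16a1. Among single guides, Slc16a1 guide 6 turned to 0.0486 without dead library b (lowest −0.103 with a library left out) and guide 8 to 0.0319 without dead library a (lowest −0.225). No tested member guide passed under any alternative run, with a lowest adjusted p of 0.153 for Slc2a1 guide 9.

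Over the whole table, 1 gene (higher) was called by limma voom on reads and 0 under the 16 other alternatives. Guides called higher numbered 1 with a pseudocount of 0.5, at equal totals and when centred on control guides, and 0 to 3 with a library left out, the 3 without dead library a. Guides called lower numbered 4 with a pseudocount of 0.5, 0 with a pseudocount of 5, 8 at equal totals, 10 when centred on control guides, 0 with voom, and 0 to 7 with a library left out (7 without dead library a, 0 without dead b or c, and 0 without either living library, where the dead libraries alone give the spread). Leaving out guides of a gene, keeping guides with any read, and voom were chosen after seeing the data. Planned fits with edgeR were not run, and limma voom took their place. No paired analysis was possible because the libraries share 1 cell per group and carry no replicate number. The depth limits rare guides such as Slc16a1 guide 5, with 0 to 23 reads a library.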
